A study of Mus musculus with 4 samples.

Results

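The cell cycle and DNA replication genes are 47 named genes that duplicate the genome and divide the cell: 12 act in DNA replication, 6 in the passage from G1 to S phase and 29 in mitosis. They were chosen by name. A gene counted as measured where the platform annotation lists a probe set, the group of array probes that reads 1 transcript, with that gene alone. That held for 46 of the 47, out of 18193 genes on the array. Ccnb1, the cyclin B1 gene, was not analysed here. Of the 46, 31 had a mean log2 intensity above 6.58, the 40th percentile of all genes, and were tested among 10916 genes. The other 15, 12 of them mitotic, lay below it and are described by value alone.

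RNA came from whole dorsal skin of male C57B6 mice, shaved and excised after death. A pair of biological replicates was taken at postnatal day 54 (P54) and another at postnatal day 59 (P59), a middle and a late time of adult telogen, in which hair follicles rest. No treatment or mutant allele is named for either group. Nothing says how many animals made up a sample, so p-values measure only the spread between these samples. In RNA of whole skin, fewer cells of a type and less RNA per cell cannot be told apart.

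Replication begins with licensing: in G1, CDC6 and CDT1 load a ring of MCM proteins, the replicative helicase, onto origins. Cyclin D with its kinases, then cyclin E, releases E2F factors, which switch on the genes for licensing and nucleotide supply. Genes of mitosis peak later, when the cyclin B kinase CDK1 drives spindle assembly and the anaphase-promoting complex, activated by CDC20, ends it. In skin, dividing cells sit in the basal epidermis, the sebaceous gland and, once a follicle leaves telogen, its germ and hair matrix.

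These classes are also known for different promoter elements, and the sequences of RefSeq (GRCm38.p6) show them in the genes described here. The windows run from 250 bases before to 50 bases after each start. Of the 46 measured genes, 37 had an entry. Searched on both strands, the E2F-type element (the letters TTCCCGC, the letters TTCGCGC, the letters TTGCCGC or the letters TTGGCGC) lay in the windows of 8 of 11 replication genes, or 72.7%, against 17.4% of the mitotic genes and 10.9% of all 27025 genes. TTTGAA, the core of the cell cycle homology region (CHR) bound by the MuvB complex, lay in 17 of 23 mitotic genes, or 73.9%, against 9.09% of the replication genes and 20.2% of all genes. Its variant TTTAAA was found in 21.7% of mitotic, 18.2% of replication and 14.9% of all genes. The CCAAT box, bound by NF-Y, lay in 82.6% of mitotic, 72.7% of replication and 41.1% of all genes. It shared bases with an E2F-type match in 1 replication and 2 mitotic windows.

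The 250 bases before the start are shown for 5 genes, 4 that stand for this contrast and Mcm2, a replication gene that goes against it, 5′ to 3′ on the strand of the gene, with every match in capitals:

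Mcm5 (plus strand, chr8:75109259-75109508): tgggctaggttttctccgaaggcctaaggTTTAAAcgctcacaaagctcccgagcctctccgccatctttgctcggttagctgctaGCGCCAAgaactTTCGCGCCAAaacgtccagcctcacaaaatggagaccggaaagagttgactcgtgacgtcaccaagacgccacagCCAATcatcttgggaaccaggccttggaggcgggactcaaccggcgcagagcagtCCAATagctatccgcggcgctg

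Mcm6 (minus strand, chr1:128359706-128359955): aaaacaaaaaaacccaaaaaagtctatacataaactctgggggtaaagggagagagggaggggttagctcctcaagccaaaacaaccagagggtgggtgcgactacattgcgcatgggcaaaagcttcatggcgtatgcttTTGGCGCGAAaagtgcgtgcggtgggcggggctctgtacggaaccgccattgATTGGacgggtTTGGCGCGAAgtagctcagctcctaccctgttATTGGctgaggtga

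Mcm2 (minus strand, chr6:88898781-88899030): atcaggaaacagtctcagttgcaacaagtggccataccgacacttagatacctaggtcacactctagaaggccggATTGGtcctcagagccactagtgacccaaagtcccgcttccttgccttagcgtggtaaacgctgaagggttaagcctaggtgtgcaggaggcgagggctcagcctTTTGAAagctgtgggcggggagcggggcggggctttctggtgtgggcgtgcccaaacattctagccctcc

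Ccnb2 (minus strand, chr9:70421555-70421804): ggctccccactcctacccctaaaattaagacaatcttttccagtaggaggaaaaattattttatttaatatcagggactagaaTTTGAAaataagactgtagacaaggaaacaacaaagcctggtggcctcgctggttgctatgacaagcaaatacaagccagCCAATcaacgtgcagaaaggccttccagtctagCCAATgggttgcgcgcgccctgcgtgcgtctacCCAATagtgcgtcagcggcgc

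Cdc20 (minus strand, chr4:118437344-118437593): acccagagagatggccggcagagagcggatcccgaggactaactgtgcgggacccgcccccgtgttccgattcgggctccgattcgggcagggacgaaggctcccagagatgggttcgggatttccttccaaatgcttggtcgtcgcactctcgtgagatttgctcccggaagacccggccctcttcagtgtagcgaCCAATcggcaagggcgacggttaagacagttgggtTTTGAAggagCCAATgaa

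In Mcm5 the E2F-type matches stand before both CCAAT boxes, and in Mcm6 each overlapping pair of E2F-type matches is followed by a CCAAT box. Mcm2 has a CHR core that begins 70 bases before its start and no E2F-type match, whereas Mcm3, Mcm5, Mcm6, Mcm7, Cdc6 and Cdt1 each have an E2F-type match in their windows. Ccnb2, the cyclin B2 gene, holds 3 CCAAT boxes and a CHR core, and in Cdc20 the CHR core begins 18 bases before the start, between a pair of CCAAT boxes. A match is a description of letters, not a binding site.

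The deposited values are RMA intensities on a linear scale, taken here to log2, and differences are P59 minus P54. P59 replicate 2 stood apart in the quality of its RNA. The array carries control sets at both ends of the Gapdh transcript, and the 3′ set over the 5′ set gave a ratio between 1.15 and 1.27 on the other arrays and of 23.8 on this one. For beta-actin the ratio was 3.12 on this array and between 1.13 and 1.44 on the others. Where leaving out this array moved a printed difference of a gene by over 1.5 times, the value without it is given too. Without it, P59 is represented by 1 array. Krt5 and Krt14, the keratins that define the basal epidermis, read between 12.91 and 13.74 on all arrays, so the skin label was met. Median intensity lay between 64.7 and 69.3.

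**Figure D1:**
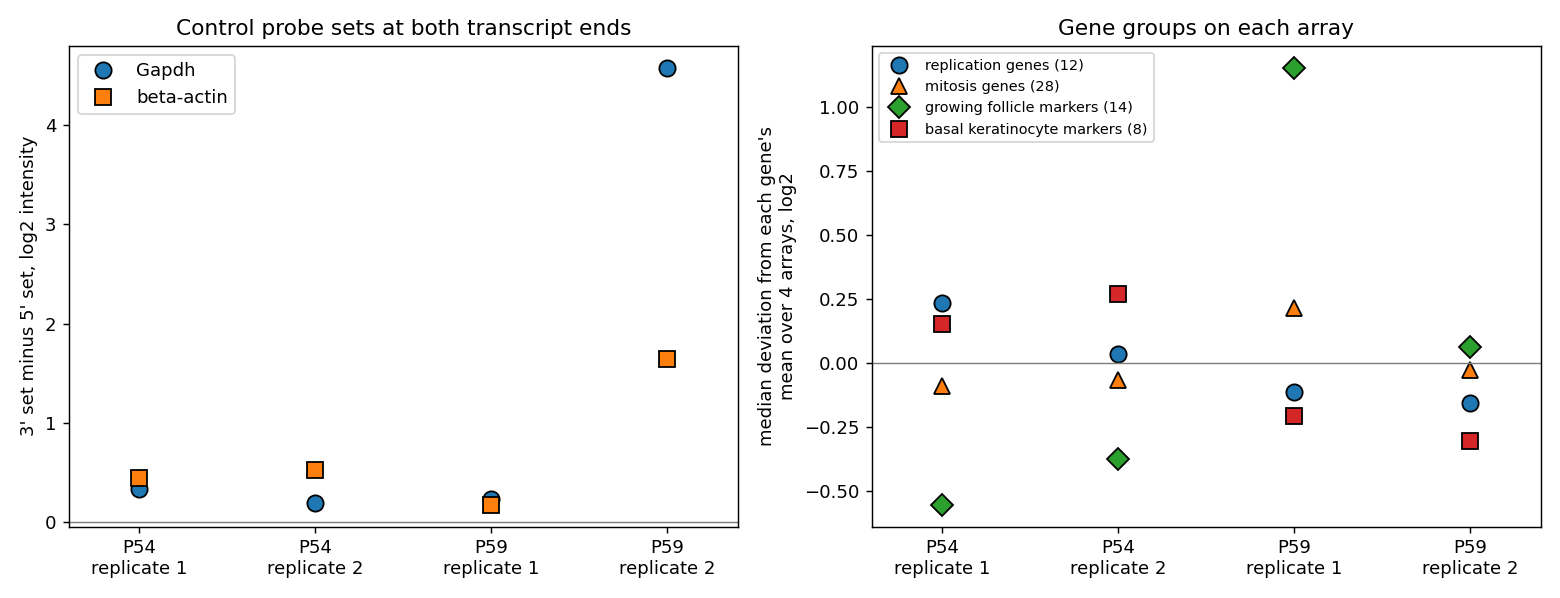
Left, log2 intensity of the 3′ control set minus that of the 5′ set for Gapdh and beta-actin on each array; P59 replicate 2 lies at 4.57 and 1.64 and the other arrays at 0.52 or below. Right, the median over genes of log2 intensity minus each gene's mean over the 4 arrays, for 4 gene groups; the growing follicle markers and the mitosis genes are highest in P59 replicate 1.

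Most replication genes had a lower mean at P59 and most mitotic genes a slightly higher one, and no cell cycle gene passed the adjusted test. The mean was lower at P59 for 11 of 12 replication genes, against 37.7% of all genes, with a median difference of -0.32. It was higher for 25 of the 28 mitotic genes measured, against 62.3% of all genes, with a median of 0.16, and for 19 of them after repeated quantile normalization and 21 after centring each array on its median. Over all 18193 genes the median was 0.07. Among the 10916 tested, 41.6% had a lower and 58.4% a higher mean. The groups did not overlap for 7 of 12 replication genes, all lower (12.3% of all genes), and for 10 of 28 mitotic genes, all higher (23.3% of all genes).

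In limma's test across 10916 genes, 0 of the 31 tested cell cycle genes passed an adjusted p of 0.05, a level that 0.0183% of all genes passed upwards and 0% downwards. At an unadjusted p under 0.05, 3 were higher, Nusap1, Ccnb2 and Bub1b (3.47% of all genes tested), and 2 were lower, Mcm5 and Ccnd3 (3.01%). With a difference of at least 1.5-fold as well, Nusap1 was left among the higher (3.03%), and both lower genes were left (2.53%).

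The arrays did not carry both directions alike. Leaving out P54 replicate 1 gave 11 of 12 replication genes lower (35.7% of all genes), with a median of -0.18, and 21 of 28 mitotic genes higher (64.3% of all genes), with a median of 0.12. Leaving out P59 replicate 2 kept 11 of 12 replication genes lower (45.4% of all genes), with a median of -0.25, and 26 of 28 mitotic genes higher (54.6% of all genes), with a median of 0.28. Leaving out P59 replicate 1 instead, 9 of 12 replication genes were lower (35% of all genes), with a median of -0.32, but only 15 of 28 mitotic genes were higher (65% of all genes), with a median of 0.05. The mitotic difference thus lay mainly in P59 replicate 1, which held the highest value of 19 of the 28 genes, or 67.9%, against 21.2% of all genes. The replication genes were spread within P54 too: their median deviation from each gene's own mean was 0.24 for replicate 1 and 0.03 for replicate 2 of P54, against -0.11 and -0.15 for those of P59.

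**Figure D2:**
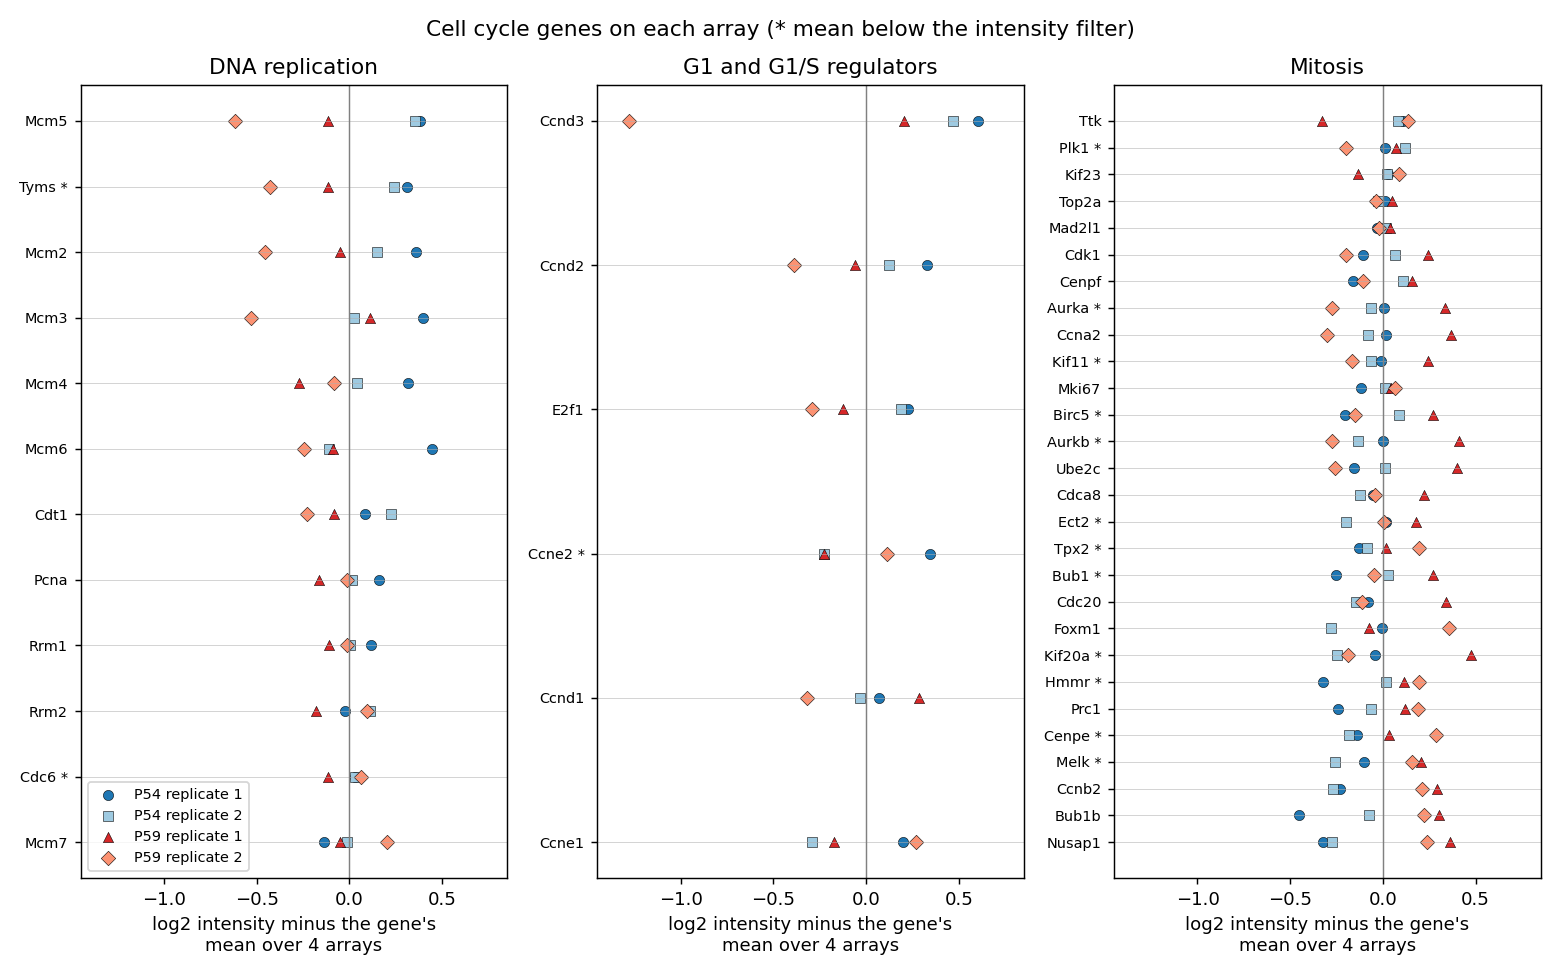
Each row is a gene and each symbol an array, plotted as log2 intensity minus the gene's mean over the 4 arrays; an asterisk marks a mean below the intensity filter. Both P59 symbols lie left of both P54 symbols for 7 of 12 replication genes, and P59 replicate 1 (triangles) lies farthest right for 19 of 28 mitotic genes.

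Markers of other cells differed between the arrays too. Of 14 markers of the growing follicle (matrix and inner root sheath), 12 were higher at P59, and their summed intensity was 2686 to 2723 on the P54 arrays but 14151 on P59 replicate 1 and 4237 on P59 replicate 2. Krt25, an inner root sheath keratin, read 7.21 and 4.49 on the P54 arrays against 11.64 and 9.09 on the P59 arrays. Shh, the signal made by the growing follicle, lay below the filter, with 5.85 and 6.14 against 6.98 and 6.20. All 8 basal keratinocyte markers and 8 of 9 bulge stem cell markers were lower on average at P59, the basal sums lying between 41835 and 47074 on the P54 arrays and between 34847 and 34852 on the P59 arrays. Macrophage markers were higher, 7 of 7, with sums of 7318 and 6418 for P54 against 7483 and 10916 for P59, in replicate order. Without P59 replicate 2, 5 of 7 were higher, and their median difference was 0.36 instead of 0.65. Neutrophil markers, 3 of 3 higher, summed to 189 and 209 for P54 against 514 and 816 for P59. Of these, S100a8 passed limma's adjusted threshold, as did 0.0183% of all genes tested upwards. Without the filter 0 genes passed it. Csf3r lay below the filter and differed by 0.38. Adipocyte markers, 6 of 6 lower with a median of -0.36, summed to 16129 to 18602 for P54 against 13378 to 14511 for P59. Their median deviations by array (0.36, 0.04, -0.12 and -0.22, in the order P54 then P59) stood in the same order as those of the replication genes. Of the suprabasal keratinocyte markers 7 of 8 were lower, with sums of 54371 to 57212 for P54 against 45395 to 49115 for P59. T cell markers summed to 1659 to 1869 for P54 against 1787 to 2113 for P59. The lowest linear intensity of any probe set was 6.41, so no marker could be listed at 0. The filter was passed by 10 of 14 growing follicle, 8 of 9 bulge, 2 of 3 neutrophil and 4 of 7 T cell markers. All markers on the other lists named here passed it. The part of these cells in the cell cycle values was not tested.

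Among the licensing genes, Mcm5 differed most. Its log2 intensity was 8.58 and 8.55 on the P54 arrays against 8.08 and 7.58 on the P59 arrays, so both late arrays lay below both earlier ones. The difference was -0.74, or 1.66-fold (SE 0.25, limma adjusted p = 0.583), from a mean of 8.57 ± 0.02 to 7.83 ± 0.36 (SD, n = 2). Without P59 replicate 2 it was -0.48. Its 3 probe sets were all lower, by -0.74 to -0.22, and P59 replicate 1 lay below both P54 arrays on each. The set at -0.22 was dim, with a mean of 3.89.

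Mcm2, another subunit of the helicase ring, read 9.18 and 8.97 on the P54 arrays against 8.77 and 8.36 on the P59 arrays. These groups did not overlap either, and the difference was -0.51 (SE 0.24, limma adjusted p = 0.800), or -0.31 without P59 replicate 2. Mcm3 read 8.33 and 7.96 on the P54 arrays against 8.05 and 7.40 on the P59 arrays. Here the groups overlapped, since P59 replicate 1 lay above P54 replicate 2. The difference of -0.42 became -0.10 without P59 replicate 2 and -0.24 without P54 replicate 1.

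Mcm4 read 8.80 and 8.53 against 8.21 and 8.40, a difference of -0.36, which was -0.45 without P59 replicate 2 and -0.22 without P54 replicate 1. Its second set differed by -0.11. Mcm6 differed by -0.33, but its P54 arrays lay apart, at 9.81 and 9.25, and P59 replicate 1, at 9.28, lay above the lower of them. Without P54 replicate 1 the difference was -0.05, and without P59 replicate 2 it was -0.25. Mcm7 was the exception of the ring, at 9.68 and 9.80 against 9.77 and 10.02 (difference 0.15, 95% interval -0.36 to 0.66, and 0.02 without P59 replicate 2). Of the loaders, Cdt1 was lower in both late arrays (8.50 and 8.63 against 8.32 and 8.18, difference -0.31, limma adjusted p = 0.917), and Cdc6, below the filter, differed by -0.06. Their differences were -0.24 and -0.15 without P59 replicate 2.

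Among the genes of DNA synthesis all 4 had a lower mean on the set used. Pcna, the sliding clamp of the polymerases, read 11.03 and 10.88 on the P54 arrays against 10.70 and 10.85 on the P59 arrays. Its groups were separate by a narrow margin, and the difference of -0.18 had a 95% interval of -0.68 to 0.32. Without P59 replicate 2 it was -0.25. The ribonucleotide reductase subunits Rrm1 and Rrm2 differed by -0.12 and -0.08, and by -0.17 and -0.22 without that array. The mean over the 3 sets of Rrm1 was -0.40. It included a set at -0.79, on which P59 replicate 2 read 6.54 against 8.44, 8.02 and 8.33 on the other arrays. Leaving that array out, the 3 sets of Rrm1 ran from -0.28 to 0.10. Rrm2 was lower on the set used alone: its other sets were each higher by 0.10, and the mean over its 3 sets was 0.04. Tyms, which makes thymidylate, was at 5.25 and 5.18 against 4.82 and 4.51. It lay below the filter throughout, so its difference of -0.55 rests on dim signal. Without P59 replicate 2 it was -0.39, and the mean over its 4 sets was -0.23.

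Of the 6 G1 genes 5 had a lower mean at P59 (37.7% of all genes), with a median of -0.27. Without P54 replicate 1 there were 3 of 6 (35.7% of all genes), with a median of -0.17, without P59 replicate 1 there were 4, and without P59 replicate 2 there were 5. Ccnd3 had the largest difference of all 46 genes, reading 9.43 and 9.30 on the P54 arrays, 9.04 on P59 replicate 1 and 7.55 on P59 replicate 2. The array with the high 3′ to 5′ ratio thus held most of it: the difference was -1.07 (SE 0.40, limma adjusted p = 0.623) with it and -0.33 without it. Without P59 replicate 1 it was -1.82 (limma adjusted p = 0.00932), the array with the high ratio then standing alone for P59. Its other sets, both dim, differed by -0.25 and 0.08.

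Ccnd2 was lower in a way that several probe sets shared. The set with the highest mean read 11.37 and 11.17 on the P54 arrays against 10.98 and 10.65 on the P59 arrays, in separate groups, a difference of -0.45 (SE 0.24, limma adjusted p = 0.849). All 7 of its sets were lower at P59, by -2.15 to -0.45, and P59 replicate 1 lay below both P54 arrays on 6 of the 7. The sets at -1.86 and -0.46 were dim, with means of 5.60 and 6.02. Without P59 replicate 2 the 7 differences ran from -1.95 to -0.25, and that of the brightest set was -0.29.

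Ccnd1, the cyclin D gene most tied to growth factor signals, gave no single answer. Its brightest set read 10.07 and 9.97 on the P54 arrays against 10.28 and 9.68 on the P59 arrays, a difference of -0.04 (95% interval -0.61 to 0.54), with the P54 arrays between the P59 arrays. Leaving out P59 replicate 2 gave 0.27. Its other sets differed by -0.62 and -1.69. The 3 sets ran from -1.20 to 0.27 without P59 replicate 2. P59 replicate 1 lay above both P54 arrays on 2 of them and below both on 1. The sets of this gene thus differ in size and, without P59 replicate 2, in direction.

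E2f1, an activating factor of G1/S genes, read 7.46 and 7.42 on the P54 arrays against 7.10 and 6.94 on the P59 arrays. The groups were separate and the difference was -0.41 (SE 0.22, limma adjusted p = 0.863), or -0.33 without P59 replicate 2. Its other sets differed by -0.19 and, on a dim set, by 0.06, and the mean over its sets was -0.18. The cyclin E genes Ccne1 and, below the filter, Ccne2 differed by 0.09 and -0.12 with overlapping groups, and by -0.13 and -0.29 without P59 replicate 2.

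**Figure D3:**
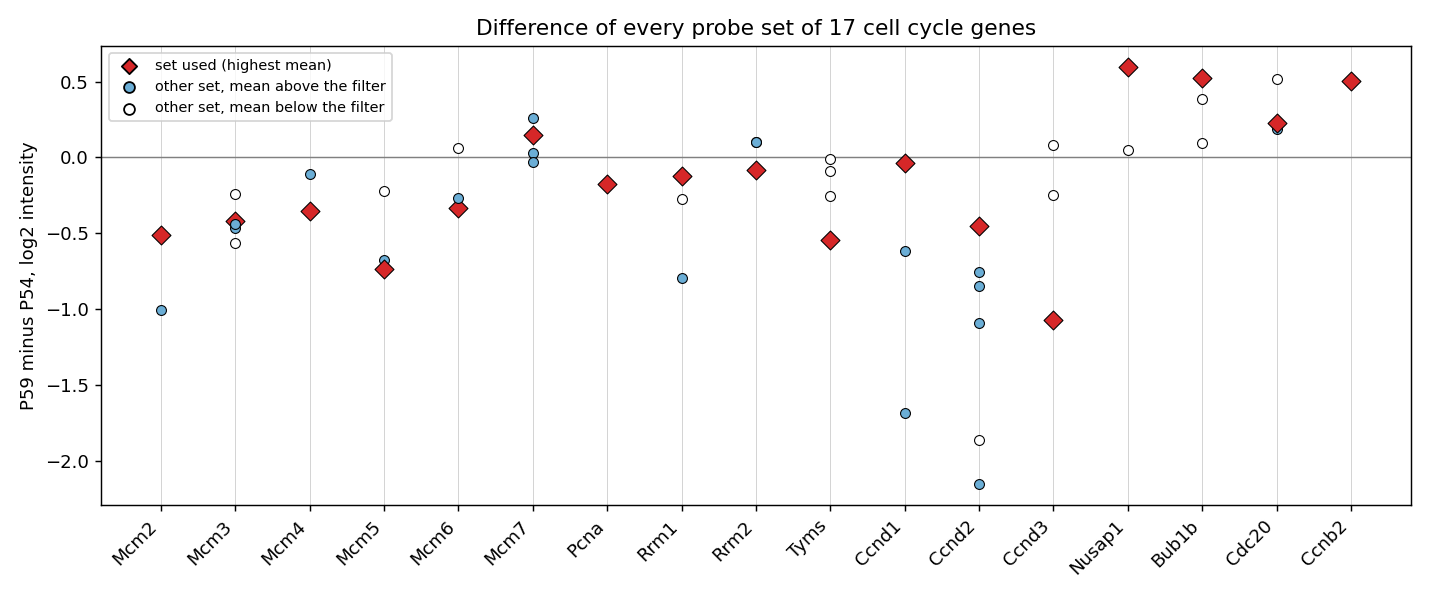
Difference P59 minus P54 in log2 intensity for every probe set of 17 genes; the diamond is the set used for the gene, and open circles are sets with a mean below the filter. All 7 sets of Ccnd2 lie between -2.15 and -0.45, while the 3 sets of Ccnd1 run from -1.69 to -0.04.

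P59 replicate 2 was not low throughout: it held the highest value of 43.7% and the lowest of 20.2% of all genes. Its readings also differed between the probe sets of a gene. Against the mean of the other 3 arrays it read -0.01 on one set of Rrm1 and -1.72 on another, and -0.61 and -1.54 on the sets of Mcm2. The Mcm3 sets ranged from 0.0007 to -1.46, those of Mcm7 from -0.24 to 0.35 and those of Rrm2 from 0.13 to 0.36. Where each set lies on its transcript was not analysed here. By sets rather than genes, 27 of 34 sets of replication genes were lower, beside 14771 of all 34945 sets with 1 gene. Of the sets of mitotic genes 48 of 60 were higher, beside 20174 of the 34945.

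Mki67 and Top2a, the usual markers of dividing cells, had small mean differences. Mki67, the gene of the Ki-67 protein that coats mitotic chromosomes, read 8.36 and 8.49 on the P54 arrays against 8.52 and 8.54 on the P59 arrays. The difference of 0.11 had a 95% interval of -0.39 to 0.60. Top2a, the topoisomerase that untangles sister chromosomes, was at 8.30 and 8.26 against 8.33 and 8.25, a difference of 0.01 (95% interval -0.48 to 0.51). The P59 arrays of Top2a enclosed those of P54, while those of Mki67 lay just above them. Leaving out P59 replicate 2 gave 0.10 for Mki67 and 0.05 for Top2a.

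The largest differences among mitotic genes were those of Nusap1, Bub1b and Ccnb2. Nusap1, which bundles spindle microtubules, read 6.75 and 6.80 on the P54 arrays against 7.44 and 7.32 on the P59 arrays. Each P59 array lay above each P54 array, and the difference was 0.60, or 1.51-fold (SE 0.22, limma adjusted p = 0.628), from 6.78 ± 0.03 to 7.38 ± 0.09 (SD, n = 2). Leaving out any 1 array gave 0.54 to 0.66, though its second set, a dim one, differed by 0.05.

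Ccnb2 read 6.70 and 6.66 on the P54 arrays against 7.23 and 7.15 on the P59 arrays, also without overlap. The difference was 0.50 (SE 0.22, limma adjusted p = 0.764) and lay between 0.46 and 0.54 with any 1 array left out. Bub1b, whose protein BUBR1 holds back anaphase until chromosomes are attached, read 6.35 and 6.72 on the P54 arrays against 7.10 and 7.02 on the P59 arrays. Its difference of 0.53 (SE 0.24, limma adjusted p = 0.770) ranged from 0.34 to 0.71 with 1 array left out. In all 3 genes each P59 array lay above each P54 array, which held for 10 of the 28 mitotic genes.

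Cdk1, the mitotic kinase itself, read 7.08 and 7.25 on the P54 arrays, 7.43 on P59 replicate 1 and 6.99 on P59 replicate 2. The P59 arrays enclosed the P54 arrays, and the difference was 0.05 (95% interval -0.50 to 0.59), 0.27 without P59 replicate 2 and -0.17 without P59 replicate 1. The order was the same, highest in P59 replicate 1 and lowest in P59 replicate 2, for Ccna2 (cyclin A2) and Top2a. It was also that of Ube2c, the ubiquitin-conjugating enzyme of the anaphase-promoting complex. Below the filter, it held for Aurka and Aurkb (the Aurora kinases) and Kif11 (the kinesin that separates spindle poles). Ccna2 differed by 0.06 and Ube2c by 0.14, and by 0.40 and 0.47 without P59 replicate 2. The second set of Ccna2 differed by -0.20, and by 0.01 without that array. Of the other entry genes, Foxm1, the transcription factor of the G2 and M genes, differed by 0.28, but by 0.07 without P59 replicate 2. Melk and Plk1, the polo-like kinase, both below the filter, differed by 0.36 and -0.13, and by 0.38 and 0.0031 without it.

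Checkpoint and anaphase genes other than Bub1b differed by -0.19 to 0.23. Cdc20 was at 7.90 and 7.83 against 8.32 and 7.86 (difference 0.23), again high in P59 replicate 1, and differed by 0.45 without P59 replicate 2. Cdca8 and Birc5, subunits of the chromosomal passenger complex, differed by 0.18 and 0.12, and the checkpoint genes Mad2l1, Bub1 and Ttk by 0.02, 0.22 and -0.19. The differences of Cdca8, Birc5, Mad2l1, Bub1 and Ttk were 0.31, 0.33, 0.05, 0.38 and -0.42 without P59 replicate 2. Birc5 and Bub1 lay below the filter. Among spindle and cytokinesis genes, Prc1, which holds the central spindle together, differed by 0.31, Hmmr by 0.30, Cenpe by 0.32 and Tpx2 by 0.21. The groups were separate for each of these 4, as for 23.3% of all genes upwards. Their means over all sets were 0.33, 0.20, 0.11 and 0.04. Lower at P59 were 0 of 2 sets of Prc1, 2 of 5 of Hmmr, 1 of 2 of Cenpe and 1 of 4 of Tpx2. Kif20a (0.29), Ect2 (0.18), Cenpf (0.05) and Kif23 (-0.05) overlapped between the groups. Tpx2 (0.12) and Cenpe (0.19) differed less, and Kif20a (0.62), Cenpf (0.18) and Kif23 (-0.15) more, without P59 replicate 2. Of these 8 genes, Prc1, Cenpf and Kif23 passed the filter.

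**Figure D4:**
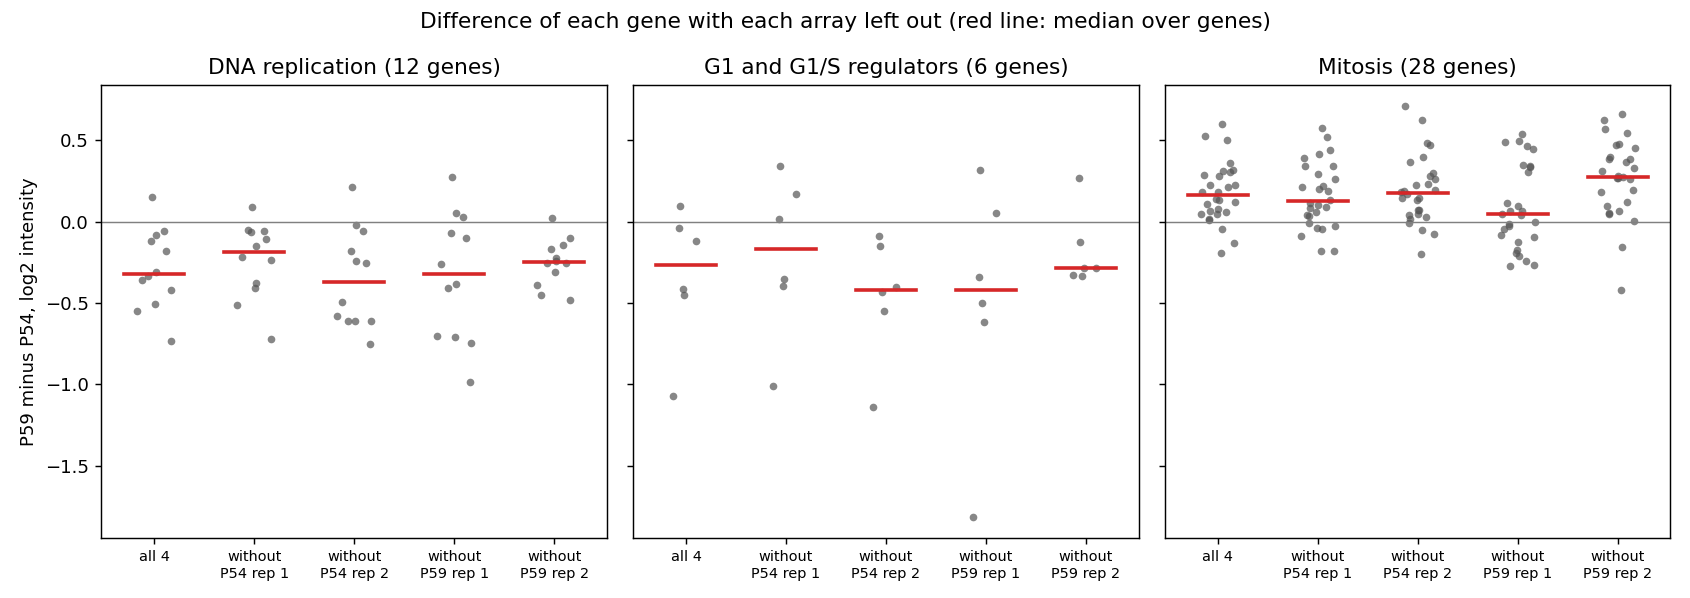
P59 minus P54 in log2 intensity for each gene (grey points) and the median (red line), with all 4 arrays and with each left out in turn. The replication median stays between -0.37 and -0.18, and the mitosis median between 0.05 and 0.28, lowest without P59 replicate 1.

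Other cell cycle genes, from lists that do not hold the 46, did not all follow them. Of 38 other origin and fork genes, 16 were lower on average at P59 (37.7% of all genes), with a median of 0.02. The genes with the smallest p were Uhrf1, which recruits the maintenance DNA methyltransferase (-0.58, limma adjusted p = 0.762), Tk1, the thymidine kinase (-0.48, limma adjusted p = 0.870), and Pole2, a polymerase epsilon subunit (-0.36, limma adjusted p = 0.891). Without P59 replicate 2 these were -0.32, -0.12 and -0.33. Of 38 other mitotic genes, 25 were higher (62.3% of all genes), with a median of 0.10. Cenpa, the centromeric histone, differed by 0.49 (limma adjusted p = 0.770), but 2 of its 3 sets were lower. Ube2s and Fzr1, both of the anaphase-promoting complex, differed by -0.87 and -0.82, and by -0.20 and -0.09 without P59 replicate 2. On these lists 0 genes passed the adjusted threshold in limma. At an unadjusted p under 0.05, 1 of 33 tested origin and fork genes and 1 of 24 tested mitotic genes were lower. That level was passed downwards by 3.01% of all genes tested. On both lists 0 were higher (3.47% of all genes tested).

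Among the kinases and their activators, Wee1, which holds CDK1 inactive and is also a target of the circadian clock, differed most. It read 10.73 and 10.31 on the P54 arrays against 8.68 and 9.40 on the P59 arrays, a difference of -1.48 (SE 0.29, limma adjusted p = 0.179), and -1.84 without P59 replicate 2. Cks1b, a small CDK-binding subunit, differed by -0.62 (-0.40 without that array), Ccng2 by 0.49 (0.14 without it), Cdk4 by -0.28 (-0.07) and Cdk2 by 0.11 (-0.05). Of the 16 genes on this list 7 were higher and 9 lower.

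The CDK inhibitors were split, 4 higher and 4 lower of 8. Cdkn1c (p57) read 8.29 and 8.11 on the P54 arrays against 8.63 and 8.52 on the P59 arrays (difference 0.37, limma adjusted p = 0.884). Cdkn1a (p21) was at 10.73 and 11.02 against 10.60 and 10.49 (-0.33, limma adjusted p = 0.916), and Cdkn1b (p27) differed by -0.09 (95% interval -0.59 to 0.42). The 3 differences were 0.42, -0.28 and -0.15 without P59 replicate 2. Cdkn2d differed by -0.42 with all arrays and by 0.10 without P59 replicate 2. Of the pocket proteins and other E2F factors 10 of 15 were higher (62.3% of all genes), among them Rb1 (0.35), Rbl2 (0.39) and the repressor E2f8 (0.28), none past the adjusted threshold. Rb1 differed by 0.22 and Rbl2 by 0.16 without P59 replicate 2.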

How the data were processed

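For the 4 arrays the authors deposited intensity values per probe set, on a linear scale. Per the submitters' processing notes they came from RMA in Affymetrix Expression Console; versions are not given in the sources used here. Here log2 was taken with no pseudocount. Of 45101 probe sets, 34958 are listed with 1 gene symbol, and the set with the highest mean stood for each gene. Genes above the 40th percentile were tested with limma 3.58.1 (R 4.3.3, lmFit and eBayes, 2 residual and 8.18 prior degrees of freedom), two-sided, with Benjamini-Hochberg adjustment across the tested genes. Permutations of 4 arrays allow 3 splits and cannot reach 0.05. The procedure was tested on simulated data with noise of the same size on all arrays, so an array like P59 replicate 2 was not covered.

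Genes given in full are Mki67, Top2a, Cdk1, Mcm2, Pcna, Ccnd1 and the 10 largest differences. From each other list the 3 smallest p-values are named, beside Cdkn1a, Cdkn1b, Cdkn1c, Cdk2, Cdk4 and Rb1; further genes were named after their values were seen. The members and lists were chosen with earlier results of these data known. Alternatives changed the filter, probe set rule, scaling, pseudocount, variance trend, replicate block and arrays used. The number of arrays limits precision.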

Additional observations from a re-analysis of the deposited data

How the results depend on the processing

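Against 2 genes called by limma at the adjusted threshold, 0 were called without the filter, with the 60th percentile filter, with the mean of all probe sets, after repeated quantile normalization, with arrays centred on their medians and with log2(intensity + 16). At an unadjusted p under 0.05, 457 to 1122 genes were left in those 6 settings. With 1 array left out, the count of genes called at the adjusted threshold ran from 29 to 402. Genes higher at an unadjusted p under 0.05 and 1.5-fold numbered 331, and 276 were lower. The higher count was 497 without the filter and 183 with the 60th percentile. Without 1 array the counts ran from 104 to 832 higher and from 169 to 875 lower. Centring arrays moved the higher share of these calls from 54.5% to 43.0%, and leaving out the filter moved it to 64.6%.

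The 1 cell cycle gene higher at that level, Nusap1, was lost (0) with quantile normalization, centring, log2(intensity + 16) and the replicate block. The count was also 0 with the 60th percentile filter and the mean of probe sets. In these 2 settings Nusap1 lay below the filter and was not tested, its difference being 0.60 and 0.32. The 2 lower ones, Mcm5 and Ccnd3, became 1, Mcm5, after quantile normalization. With the mean of probe sets 2 were again lower, but these were Ccnd2 and Mcm2: Mcm5 (-0.54) and Ccnd3 (-0.41) were both lost. With 1 array left out these counts ran from 0 to 1 and from 0 to 5, the 5 without P59 replicate 1. In that setting P59 replicate 2, the array with the high 3′ to 5′ ratio, stood alone for P59. Without P59 replicate 2, Mcm5 (-0.48) and Ccnd3 (-0.33) both fell short of 1.5-fold, so neither lower gene was left. The numbers of the replicates pair nothing in the labels, and deviations of same-numbered arrays correlated at -0.04. With the replicate block 156 genes and 1 cell cycle gene, Ccnd3, were called, and leaving out 1 array gave 0 to 1 cell cycle gene.

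The median of the replication genes was -0.21 with the mean of probe sets and ran from -0.37 to -0.18 with 1 array left out. That of the mitotic genes ran from 0.05 to 0.28. The median of all 46 genes, 0.05, was -0.018 after quantile normalization and -0.0037 after centring, and ran from -0.036 to 0.081 with 1 array left out. After quantile normalization 19, and after centring 21, of 28 mitotic genes were higher. Replication genes were lower in 11 of 12 under both. With the mean of probe sets, 10 of 12 replication genes were lower and 23 of 28 mitotic genes higher. The cause of these shifts was not tested.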

Other observations

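The 18 antiproliferative and quiescence genes were split, with 11 higher and 7 lower at P59 and a median log2 difference of 0.08. Gadd45a, a stress-induced gene that binds PCNA, read 7.02 and 7.35 on the P54 arrays against 8.04 and 7.87 on the P59 arrays. Both late arrays were above both earlier ones, by a difference of 0.77 (SE 0.24, limma adjusted p = 0.498), and by 0.85 without P59 replicate 2. Its relative Gadd45g read 9.28 and 8.54 on the P54 arrays against 8.08 and 8.33 on the P59 arrays (difference -0.70, limma adjusted p = 0.715). Without P54 replicate 1 it was -0.33, and without P59 replicate 2 it was -0.82. Plk3, a stress-linked polo-like kinase gene, differed by -0.54 (limma adjusted p = 0.763), and by -0.39 without P59 replicate 2.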
